A study of Mus musculus with 2 samples.

Results

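Keratinocytes with transcripts of Lhx2 or Sox9 and a basal keratin profile were studied in the back skin of imiquimod-treated mice. A cell barcode was kept when it held at least 1000 unique molecular identifiers (UMIs, each a counted RNA molecule) and at least 200 genes, with at most 10% of UMIs from mitochondrial genes. Of the kept barcodes, those were selected in which the basal keratins Krt5 and Krt14 together made up at least 0.5% of UMIs and Lhx2 and Sox9 together had at least 2 UMIs. Barcodes with 0.1% or more Krt79, with 3 or more UMIs of the proliferation genes Mki67 and Top2a, or with 0.25% or more Krt1 and Krt10 were left out. The rule selected 1793 of 25443 deposited barcodes, of which 21231 were kept. They are called Lhx2/Sox9 keratinocytes here.

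Each genotype was represented by 1 library, WT (wild type) and KO (Chrna5-/-, which lacks a nicotinic acetylcholine receptor subunit). Both came from female mice of 6 to 8 weeks, and both received 62.5 mg of 5% imiquimod cream, which activates Toll-like receptors and inflames mouse skin in a way used to model psoriasis, on shaved back skin for 6 days before the skin was taken on day 7. The labels name C57BL/6, C57BL/6N and C57BL/6J, describe the KO line as backcrossed to C57BL/6N, and give 5 mice per experimental group without saying whether a library pools them. The skin was digested with collagenase and cells that excluded a dead-cell dye were sorted. A group treated with the cream base is not analysed here, so the values compare genotypes under imiquimod and do not show the response to it. With 1 library per genotype no difference could be tested against animals. Every interval is a 95% interval of counting error only.

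The outer root sheath is the outermost epithelial layer of the hair follicle and is continuous with the basal layer of the epidermis. Its bulge region holds slowly cycling stem cells. Lhx2, a LIM homeobox transcription factor, and Sox9, an HMG box transcription factor, are both needed to form or keep these stem cells. Krt15, a basal keratin, and Col17a1, a hemidesmosomal collagen, are used as markers of bulge keratinocytes, although both are also made by basal cells of the epidermis. Follicle keratinocytes respond to BMP, Wnt, Hedgehog and Notch signals, and in inflamed skin keratinocytes can make antimicrobial proteins, stress keratins and cytokines.

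Chrna5 (mm10, chr9:54980880-55007779, plus strand) was barely detected in Lhx2/Sox9 keratinocytes of either library. The WT cells held 2 Chrna5 UMIs, or 0.0896 UMIs per 1000000 (CPM; interval 0.0109 to 0.324), and the KO cells held 0, which allows up to 0.474 CPM. Which exons were deleted is not stated in the labels, so these UMIs do not check the genotype.

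The WT library gave 1347 Lhx2/Sox9 keratinocytes, 11.6% of its kept barcodes (exact Clopper-Pearson interval 11.01 to 12.2%). The KO library gave 446, or 4.64% (4.23 to 5.08%). Keratinocytes of any kind, by Krt5 and Krt14, made up 28.2% of kept WT barcodes and 9.16% of kept KO barcodes. Within those keratinocytes 41.1% were selected in WT and 50.7% in KO. When basal barcodes with 0 or 1 UMI of Lhx2 and Sox9 were counted too, the shares were 60.4% (95% exact interval 58.7 to 62.0) and 59.5% (56.2 to 62.8). The higher share in KO was thus not seen without a requirement for Lhx2 and Sox9 UMIs. A deeper barcode meets that requirement more easily, and the part of depth in the order was not tested. The gap between libraries also depended on the keratin cut-off. At 0.2% Krt5 and Krt14, a value chosen after seeing the data, 22.3% of kept barcodes were selected in WT and 13.6% in KO. Digestion and sorting can set all of these shares. Both libraries shared 49 deposited barcodes, 6 of them selected in a library and 0 selected in both.

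The selected cells were sequenced to different depths. The median was 9382 UMIs per cell in WT (1001 to 141747) and 11983.5 in KO (1026 to 108403), with 22331504 and 7781203 UMIs in sum. Mitochondrial genes took 2.49% and 2.94% of these UMIs. The tenth of cells with the most UMIs held 31.7% of the WT sum and 30.9% of the KO sum. Sums therefore weight a few large cells strongly, and values with equal weight per cell are given where they move a result.

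Sox9 (chr11:112782224-112787760, plus strand) selected nearly every cell. It had a UMI in 1344 of the WT cells (99.8%) and in 443 of the KO cells (99.3%), with medians of 7 and 9 UMIs. Lhx2 (chr2:38339281-38369733, plus strand) had a UMI in 308 WT cells (22.9%) and 118 KO cells (26.5%), and never more than 8. Cells with both genes numbered 305 in WT and 115 in KO, cells with Sox9 alone 1039 and 328, and cells with Lhx2 alone 3 in each library. The group is thus a Sox9 group of which a minority had an Lhx2 UMI. The summed levels were 25.5 CPM of Lhx2 and 791 CPM of Sox9 in WT, and 32.1 and 1261 CPM in KO, and they describe the selection only.

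Lhx2 and Sox9 were also counted in other cells. Fibroblast barcodes, taken as a reference by collagen markers with almost no Krt5 and Krt14, held 0.346 CPM of Lhx2 in WT and 0.960 CPM in KO. When every cell was thinned to 4000 UMIs, 13.6% of WT and 15.9% of KO Lhx2/Sox9 keratinocytes kept an Lhx2 UMI, against 0.100% and 0.404% of reference fibroblasts. Sox9 was at 31.3 and 32.8 CPM in reference fibroblasts. The rule itself raised the shares in the selected cells, so these values are a description.

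Selection by at least 2 UMIs followed sequencing depth. Among WT basal barcodes that met the rest of the rule, 23.9% were selected at 1000 to 2000 UMIs, 51.9% at 2000 to 5000, 86.5% at 5000 to 10000 and 92.2% at 10000 or more. In KO these shares were 30.8% (of 13 barcodes), 71.6%, 89.0% and 89.9%. Basal barcodes with neither gene had a median of 2065 UMIs in WT (341 barcodes) and 5250 in KO (35 barcodes). At the higher depths most basal keratinocytes of these libraries were therefore in the group.

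**Figure D1:**
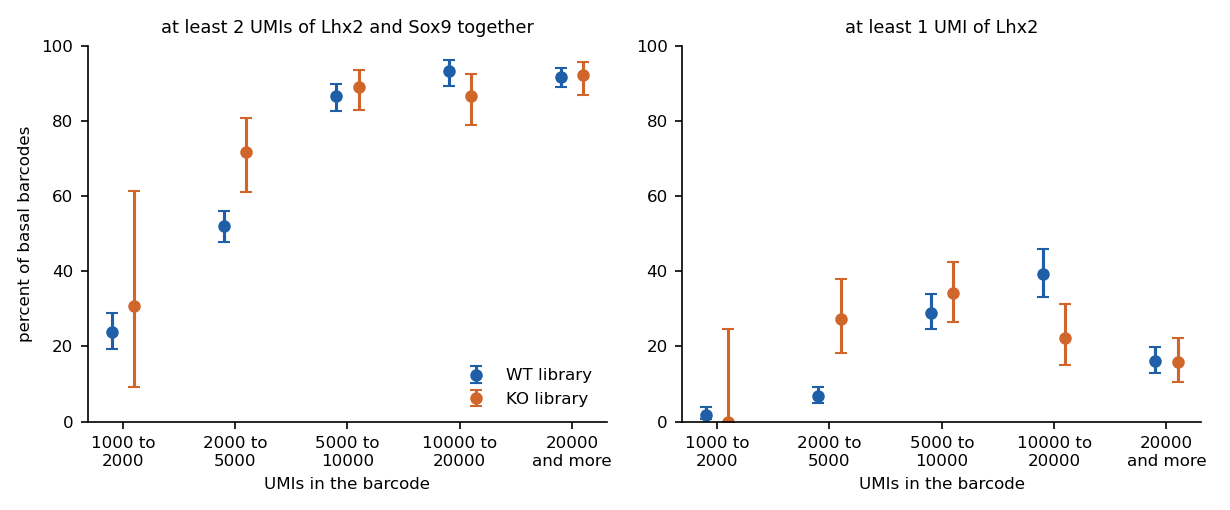
Percent of basal barcodes (vertical axis) by UMIs per barcode (horizontal axis) that had at least 2 UMIs of Lhx2 and Sox9 together (left) or at least 1 UMI of Lhx2 (right), with exact 95% intervals, for the WT (blue) and KO (orange) libraries. The left shares climb from 23.9% and 30.8% in the shallowest barcodes to over 80% above 5000 UMIs, while the right shares are highest at middle depths.

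Lhx2 did not follow depth in the same way. It was detected in 1.82% of WT basal barcodes at 1000 to 2000 UMIs, in 29.0% at 5000 to 10000 and in 39.3% at 10000 to 20000, but in 16.1% at 20000 or more. In KO the highest share was 34.2% at 5000 to 10000 UMIs, and it was 15.8% at 20000 or more. The largest cells thus had Lhx2 less often than cells of 5000 to 10000 UMIs in both libraries, despite their depth.

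The label of outer follicle keratinocytes was checked with Krt15 and Col17a1, which the rule did not use. Krt15 (chr11:100131758-100135928, minus strand) was at 170.0 CPM in WT cells and 306 CPM in KO Lhx2/Sox9 keratinocytes. In basal barcodes with neither Lhx2 nor Sox9 it was at 122 and 106 CPM, so that the summed level in the group was 1.39-fold (1.20 to 1.63) higher in WT and 2.90-fold (2.08 to 4.14) higher in KO. Thinned to 4000 UMIs, 41.0% of selected WT cells had Krt15 against 35.1% of the unselected (interval 22.9 to 48.9%), and in KO the shares were 44.0% and 40.0% (19.1 to 64.0%). Reference fibroblasts had it in 1.76% and 2.65%. The intervals of selected and unselected basal cells overlapped at equal depth.

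Col17a1 (chr19:47646344-47692094, minus strand) was alike in both sets. It was at 291 CPM in selected and 307 CPM in unselected basal cells of WT, and at 335 and 411 CPM in KO. The thinned shares were 65.6% and 64.9% in WT and 66.9% and 65.0% in KO. The unselected shares rested on only 57 WT barcodes (interval 51.1 to 77.1%) and 20 KO barcodes (40.8 to 84.6%). The markers were therefore present. Col17a1 did not set the selected cells apart from other basal barcodes, Krt15 did so past 1.5-fold in the KO sums only, and "outer follicle" is not used as a name below. Cd34, a surface sialomucin of bulge cells in mouse skin, was found in only 5.42% of thinned WT and 7.00% of thinned KO cells, and its level of 9.05 and 10.4 CPM could come from free RNA.

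Cells on either side of the cut-offs are described without a test. Cells with 2 UMIs of Lhx2 and Sox9 had Krt15 at 117 CPM in WT cells and 174 CPM in KO, and those just outside with 1 UMI had 122 and 166 CPM. Cells with 0.5 to 0.6% Krt5 and Krt14 had Krt15 at 237 and 488 CPM, and those just outside with 0.4 to 0.5% had 244 and 342 CPM. Under 0.5% Krt5 and Krt14, 1631 WT and 1613 KO barcodes met every other part of the rule, more than in the group itself.

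**Figure D2:**
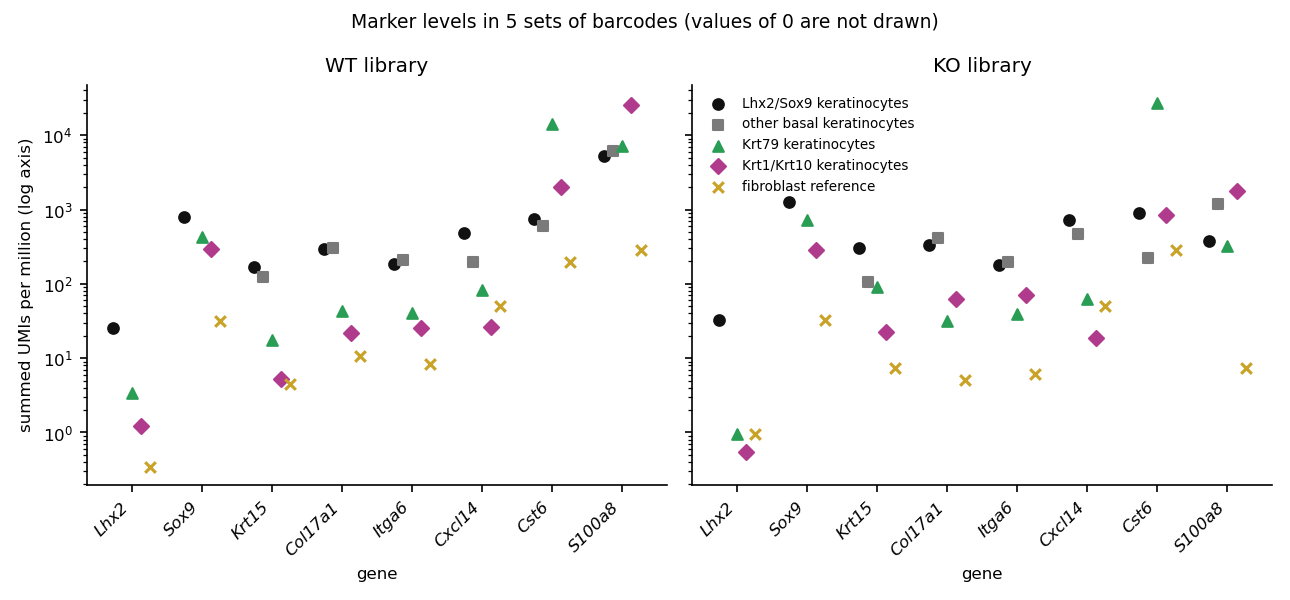
Summed CPM (log axis) of 8 genes in 5 sets of barcodes, WT library on the left and KO library on the right. Col17a1 lies close together in Lhx2/Sox9 and other basal keratinocytes (291 and 307 CPM in WT), while Cst6 is at 754 CPM in WT Lhx2/Sox9 keratinocytes and 14010 CPM in WT Krt79 keratinocytes.

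The basal character was clear beside Krt79 keratinocytes, which the rule removed (Krt79 is a keratin of the upper follicle and sebaceous duct). A gene was called higher or lower when its CPM differed at least 1.5-fold with an interval that left out 1, among genes with at least 20 UMIs over both sides, and here in both libraries. Over all genes 1247 of 10511 (11.9%) were called higher and 720 (6.85%) lower in Lhx2/Sox9 keratinocytes. These counts rest on a split by Krt79 made from the same cells and are a description. Cst6, a cystatin of the upper follicle, was at 754 CPM in selected WT and 14010 CPM in Krt79 cells, and at 901 and 27360 CPM in KO, an 18.6-fold and a 30.4-fold lower level.

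Genes of anchoring to the basement membrane were higher. Of 23 measured hemidesmosome, integrin and basement membrane genes 20 were called higher and 0 lower. Col17a1 was at 42.7 CPM in WT cells and 32.1 CPM in KO Krt79 cells, 6.81-fold and 10.4-fold below the selected cells. Itgb4, the hemidesmosomal integrin subunit, was at 57.5 CPM in WT cells and 56.9 CPM in KO selected cells against 8.84 and 8.34 CPM. Its partner Itga6 was at 184 and 180 CPM against 40.7 and 39.8 CPM. The ratios of this integrin pair were close in both libraries, 6.51 and 6.82 for Itgb4 and 4.51 and 4.54 for Itga6.

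The bulge and outer root sheath list went the same way, with 16 of 25 called higher and 0 lower. Cxcl14, a chemokine of resting epithelium (chr13:56288643-56296551, minus strand), was at 487 CPM in selected WT and 82.6 CPM in Krt79 cells, and at 714 and 62.6 CPM in KO. Postn, a matrix protein, was at 179 and 25.6 CPM in WT cells and at 295 and 61.0 CPM in KO. The upper follicle list mostly went the other way, with 2 of 15 called higher and 8 lower. Fst, a secreted inhibitor of activin and BMP, was among its higher genes. It was at 933 and 181 CPM in WT cells and at 1584 and 393 CPM in KO. Of 16 suprabasal genes 11 were called lower and 1 higher.

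Few genes were called between the group and basal barcodes without Lhx2 and Sox9, but the number depended on the setting. By the rule above, 72 of 9954 genes (0.723%) were called higher and 63 (0.633%) lower in both libraries, and the KO side of that comparison held 35 barcodes. Among barcodes of at least 10000 UMIs 295 were higher, with equal weight per cell 131 were higher and 167 lower, and at 0.2% Krt5 and Krt14 356 were lower. Wfdc18, a secreted protein with a WAP domain, was at 145 CPM in selected and 26.8 CPM in other WT basal cells, and at 61.7 CPM against 0 UMIs in KO. At a cut-off of 1% Krt5 and Krt14 its direction turned, to log2 ratios of -2.39 in WT and -5.13 in KO. Csta1, a cytosolic cystatin, was lower, at 53.1 against 163 CPM in WT cells and 52.3 against 158 CPM in KO. Ctsl, a lysosomal protease, was at 596 against 338 CPM in WT cells and 618 against 285 CPM in KO, where the 1% cut-off turned it to a log2 ratio of -0.66. Stfa1, a stefin, was lower in the group, at 755 against 1405 CPM in WT and 170.5 against 528 CPM in KO, but without the 5% largest cells its WT log2 ratio was 0.17. Csta1, Stfa1, Stfa3 and BC100530 are near-identical copies, so reads may be split among them.

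More genes were called within the group, between cells with both Lhx2 and Sox9 and cells with Sox9 alone. This comparison was added after the cells with Lhx2 alone were found to number 3 per library. Those 3 cells against Sox9 alone gave 86 of 9024 genes higher (0.953%) and 66 lower (0.731%), which is not read further. In both libraries, 1218 of 9848 genes (12.4%) were called higher and 729 (7.4%) lower in cells with both. With cells thinned to 4000 UMIs the counts were 297 and 313, and with equal weight per cell 499 were higher. Cells with both genes were deeper in WT (median 10671 against 8740 UMIs) and shallower in KO (8847 against 14901.5 UMIs). The part of depth in these counts was not tested. KO cells with Sox9 alone held 5596804 UMIs in sum, against 340690 in KO basal barcodes with neither gene. Calls were thus easier to reach here, and the counts of the comparisons do not rank the size of the differences.

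Bulge and outer root sheath genes were higher in cells with both factors. Of 24 measured, 19 were called higher and 0 lower, with a median log2 ratio of 1.24 in WT and 1.23 in KO beside 0.10 and 0.14 over all genes. Krt15 was at 429 CPM with both and 96.3 CPM with Sox9 alone in WT, and in KO at 612 and 187 CPM. Its ratios were 4.46 (4.18 to 4.76) and 3.28 (3.02 to 3.56). At equal depth 65.1% of WT cells with both genes had Krt15 against 30.6% with Sox9 alone, and in KO 60.0% against 34.0%. Krt15 was thus more frequent in the Lhx2-bearing cells than in the rest of the group.

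Other bulge genes behaved like Krt15. Lgr5, a Wnt-associated receptor of follicle stem cells, was at 33.3 against 8.998 CPM in WT cells and 55.8 against 11.1 CPM in KO. Tcf7l1, a transcription factor of the Wnt pathway, was at 17.5 against 5.27 CPM in WT cells and 29.5 against 6.08 CPM in KO. Tbx1, a T-box factor of bulge stem cells, was at 23.9 against 5.85 CPM in WT cells and 34.2 against 6.79 CPM in KO. These 3 genes had ratios of 3.32 to 5.04. Outside that list, Cd200, a surface glycoprotein that restrains leukocytes, was at 99.1 against 29.6 CPM in WT cells and 83.1 against 18.4 CPM in KO.

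The signalling lists differed in how many genes were called. Of 23 Wnt pathway genes 13 were called higher and 2 lower, of 9 Hedgehog pathway genes 5 and 0, of 13 YAP and TEAD target genes 8 and 0, and of 23 BMP and TGF-beta genes 9 and 2. Of 11 Notch pathway genes 2 were higher and 0 lower, and of 12 EGFR ligands and receptors 4 and 2. Ctgf, a secreted matricellular protein and YAP target, was at 46.5 against 6.59 CPM in WT cells and 129 against 13.9 CPM in KO, ratios of 7.05 and 9.24. Gli1, the transcription factor induced by Hedgehog signals, was at 4.94 against 1.26 CPM in WT cells and 11.1 against 1.43 CPM in KO. Of other follicle genes, Cxcl14 was at 1120 against 306 CPM in WT cells and 1461 against 413 CPM in KO. Krt75, a keratin of the companion layer (chr15:101563345-101573904), was at 58.2 against 16.8 CPM and 235 against 42.4 CPM.

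Immediate early genes were also higher in cells with both, 18 of 22 with 0 lower. Fos, a subunit of the AP-1 transcription factor, was at 2426 against 441 CPM in WT cells and 5285 against 1730 CPM in KO. Hspb1, a small heat shock protein, was at 5128 against 1300 CPM in WT cells and 10270 against 3300 CPM in KO. The lists higher in cells with both factors thus covered follicle and early response genes.

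Several inflammatory and differentiation lists held more lower than higher calls. Of 14 alarmin and antimicrobial genes 6 were called lower and 1 higher in cells with both, and of 21 wound and hyperproliferation genes 11 and 1. Of 15 suprabasal genes 6 were lower and 1 higher, and of 19 genes of the IL-17, IL-36 and TNF response 7 and 3. The cytokine and chemokine list was mixed, with 6 of 21 lower and 4 higher. Tslp, an epithelial cytokine that acts on dendritic cells, was at 23.2 CPM with both and 228 CPM with Sox9 alone in WT, and in KO at 12.9 and 239 CPM. It was 9.82-fold and 18.5-fold lower. Il33, a nuclear alarmin cytokine, was at 30.6 against 135 CPM in WT cells and 0.46 against 80.2 CPM in KO. Il1f9, the cytokine IL-36 gamma, was at 15.4 against 94.8 CPM and 8.77 against 60.6 CPM. These 3 cytokines were thus higher in cells without an Lhx2 UMI.

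S100a8, a calcium-binding alarmin (chr3:90668978-90670035, plus strand), was at 1189 against 6326 CPM in WT cells and 22.1 against 514.4 CPM in KO. At equal depth 60.9% of WT cells with both genes held S100a8, below the 64.2% of reference fibroblasts, and 81.0% of cells with Sox9 alone did. In KO the shares were 2.86%, 3.05% and 31.7%. The share of cells with S100a8 was therefore no higher than in fibroblasts where both factors were found, while its level there was above the 287 and 7.45 CPM of fibroblasts. Defb1, a beta-defensin, was at 16.2 against 95.5 CPM in WT cells and 22.6 against 126 CPM in KO. Ly6a, the surface antigen Sca-1 of interfollicular basal cells, was at 29.8 against 136 CPM and 10.6 against 104 CPM. The interfollicular basal list had no common direction, with 2 of 16 genes called higher and 3 lower. Its median log2 ratios were -0.12 in WT and -0.13 in KO.

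**Figure D3:**
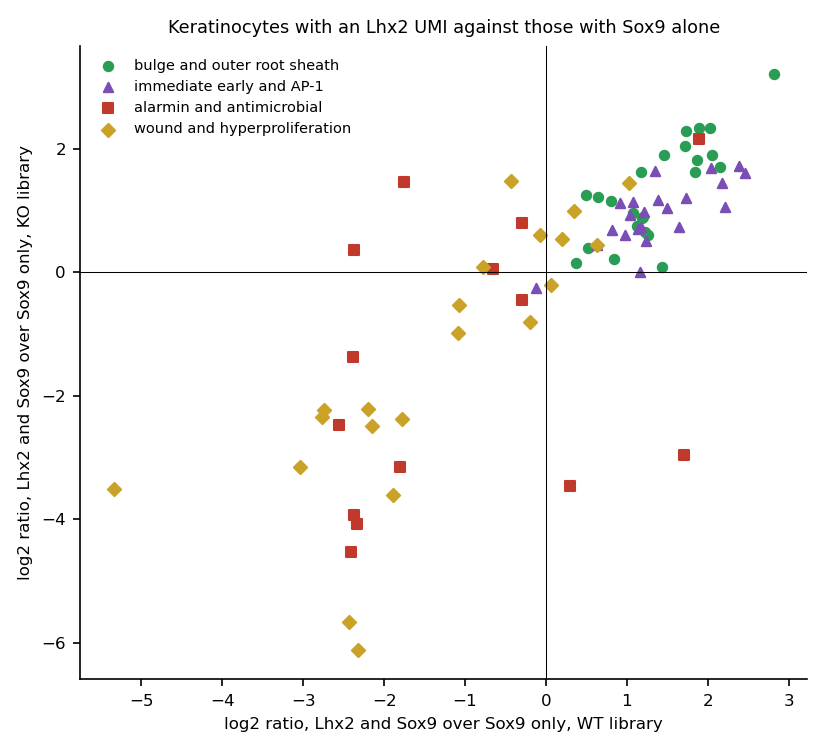
Log2 ratios of CPM in cells with both Lhx2 and Sox9 over cells with Sox9 alone, WT library on the horizontal axis and KO library on the vertical axis, each point a gene of 1 of 4 lists. Bulge genes (green) lie at positive values in both libraries, with list medians of 1.24 and 1.23, and most alarmin genes (red) lie at negative values.

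Between genotypes, the KO cells had lower alarmin and wound-associated transcripts and higher BMP-responsive, immediate early and heat shock transcripts. Over all 12371 genes measured, 1733 (14.0%) were called higher in KO and 975 (7.88%) lower, with a median log2 ratio of 0.10. The balance depended on scaling. With equal weight per cell 1498 were called higher and 1635 lower, and 1142 and 805 of them were shared with the first counts. When libraries were scaled by the median ratio, 1322 were higher and 1299 lower. List counts below are read against these shares.

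**Figure D4:**
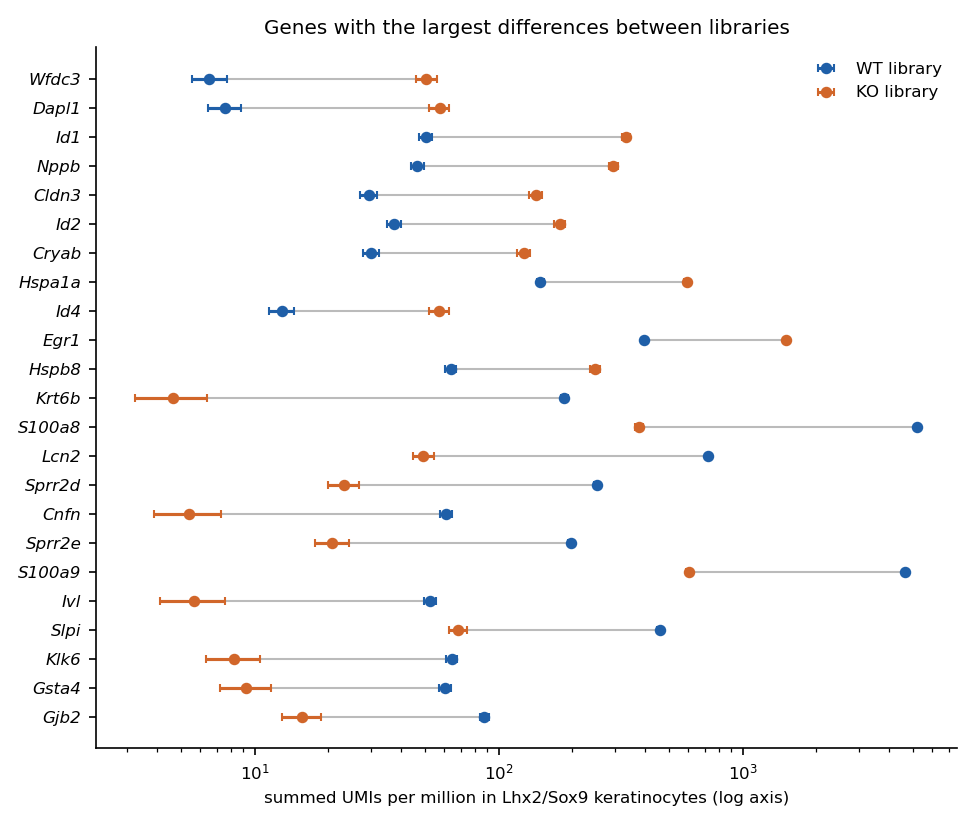
Summed CPM (log axis) of genes with the largest differences between the WT (blue) and KO (orange) libraries in Lhx2/Sox9 keratinocytes, with 95% intervals of counting error. Krt6b is at 186 CPM in the WT and 4.63 CPM in the KO cells, and Id1 at 50.2 and 333 CPM.

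Alarmin and antimicrobial transcripts were lower in KO, 14 of 18 measured with 0 higher and a median log2 ratio of -1.65. S100a8 was at 5202 CPM (116158 UMIs) in WT cells and 376 CPM (2927 UMIs) in KO, 13.8-fold lower (13.3 to 14.4). Its partner S100a9 was at 4629 and 603 CPM. Lcn2, a siderophore-binding protein, was at 723 and 49.2 CPM, and Slpi, an inhibitor of leukocyte proteases, at 457 and 68.4 CPM. Defb1 did not pass, at 78.1 CPM in WT cells and 96.8 CPM in KO. Stfa3 did not pass either, at 1037 and 1209 CPM.

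The same transcripts were lower in other cell types. In reference fibroblasts S100a8 was at 287 CPM in WT cells and 7.45 CPM in KO, and Lcn2 at 679 and 12.6 CPM. Of 16 alarmin genes measured in reference fibroblasts 13 were called lower in KO, where 13.9% of all genes were called higher and 6.21% lower. Of 12 in leukocyte barcodes 7 were lower, beside 14.0% of all genes higher and 6.73% lower. Of 14 in Krt79 keratinocytes 10 were lower, beside 10.4% of all genes higher and 9.83% lower. For S100a8 the WT level in Lhx2/Sox9 keratinocytes was far above that in fibroblasts, and the thinned shares were 74.0% against 64.2% in WT and 24.4% against 3.05% in KO. For Lcn2 the WT levels of both cell types were close, 723 and 679 CPM. How much of the difference in free RNA enters these values was not tested.

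Wound and hyperproliferation genes were lower in 13 of 23, with 1 higher and a median log2 ratio of -1.0. Without genes whose level could come from free RNA, 11 of 21 were lower and 1 higher, with a median of -0.67. Krt6b, a stress keratin (chr15:101676023-101680287, minus strand), was at 186 CPM in WT cells and 4.63 CPM in KO, 40.2-fold lower (29.0 to 57.5). Its near-identical copy Krt6a did not pass, at 1818 and 1345 CPM, and reads may be split between them. The partner keratins Krt16 (1589 and 1223 CPM) and Krt17 (3002 and 2885 CPM) did not pass either. Of these 4 stress keratins only Krt6b passed. Sprr2d, a cornified envelope precursor of a family with near-identical members, was at 253 and 23.3 CPM, and Sprr2e at 198 and 20.8 CPM. In cells with both Lhx2 and Sox9, 7 of 18 wound genes were lower and 2 higher, with a median of -0.20, beside 10.1% and 15.5% of all genes. In cells with Sox9 alone 14 of 23 were lower and 2 higher, with a median of -0.86, beside 7.74% and 12.1%. The wound list held more lower than higher calls in KO in other sets of barcodes too. In Krt79 keratinocytes 14 of 22 genes were called lower and 0 higher, beside 9.83% and 10.4% of all genes. In reference fibroblasts 11 of 21 were lower and 2 higher, beside 6.21% and 13.9%. In leukocyte barcodes 11 of 21 were lower and 3 higher, beside 6.73% and 14.0%. How much free RNA of keratinocytes enters the fibroblast and leukocyte counts was not tested.

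Other differentiation genes differed in both directions. Ivl, the envelope protein involucrin, was at 52.5 CPM in WT cells and 5.66 CPM in KO. Lor, the envelope protein loricrin, was at 4.25 CPM in WT cells and 29.6 CPM in KO, with 27.0% of the KO UMIs in 1 cell. Dapl1, an early differentiation transcript of epithelium, was at 7.57 and 57.3 CPM, 7.57-fold higher (6.33 to 9.10), over 135 KO cells. Of 18 suprabasal genes, some of them limited by the rule, 5 were called higher and 2 lower, with a median of -0.04. Cnfn, an envelope protein, was 11.3-fold lower at 60.9 and 5.398 CPM, but 41.2% of its WT UMIs were in 1 cell.

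Klk6, a serine protease, was at 64.3 CPM in WT cells and 8.22 CPM in KO, with 36.4% of its WT UMIs in 1 cell. Gsta4, a glutathione transferase, was at 60.4 and 9.25 CPM. Gjb2, the gap junction protein connexin 26, was at 87.4 and 15.7 CPM, 5.58-fold lower (4.64 to 6.75). Krt79 keratinocytes also had lower Gjb2 in KO, at 201 and 23.1 CPM. For Ivl they did not, at 55.7 and 46.2 CPM.

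BMP and TGF-beta pathway genes were higher in KO in 13 of 25, with 2 lower and a median log2 ratio of 0.76. Ligands were among them. Bmp2 was at 39.3 CPM in WT cells and 132 CPM in KO, 3.35-fold higher (3.06 to 3.67), and Bmp6 at 2.55 and 13.1 CPM. The Id genes, inhibitors of basic helix-loop-helix factors that BMP signals induce, were all called higher. Id1 (chr2:152736251-152737410, plus strand) was at 50.2 and 333 CPM, a 6.64-fold difference (6.18 to 7.12).

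Id2 was at 37.4 CPM in WT cells and 178 CPM in KO, Id3 at 316 and 1016 CPM, and Id4 at 12.9 and 57.1 CPM. Id1 had a UMI in 28.7% of WT and 58.7% of KO cells, shares not taken at equal depth, with the KO cells deeper by median. Feedback inhibitors were called higher too, with Smad7 at 38.2 and 83.5 CPM and Bambi, a decoy receptor, at 9.45 and 24.4 CPM. Secreted antagonists went the same way, Sostdc1 at 8.02 and 36.1 CPM and Fst at 933 and 1584 CPM. The calls thus covered ligands, targets and inhibitors, but not every ligand, since Bmp7 (20.5 and 24.5 CPM) did not pass. The lower genes were Grem1 (26.1 and 15.4 CPM) and Tgfb2 (16.0 and 5.66 CPM), both at levels that could come from free RNA.

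This was not limited to the group. In Krt79 keratinocytes 12 of 21 BMP and TGF-beta genes were called higher and 3 lower, beside 10.4% and 9.83% of all genes, and Id1 was at 91.8 CPM in WT cells and 442 CPM in KO. In reference fibroblasts 6 of 24 were called higher and 1 lower, beside 13.9% and 6.21% of all genes, with Id1 at 13.9 and 35.8 CPM.

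The bulge and outer root sheath list was higher in KO for 11 of 26 genes and lower for 1, with a median log2 ratio of 0.46 that was 0.33 with equal weight per cell. Krt15 was at 170.0 CPM in WT cells and 306 CPM in KO, 1.80-fold higher (1.71 to 1.89). Runx1, a transcription factor of follicle stem cells (chr16:92601466-92826149, minus strand), was at 89.0 and 204 CPM, 2.29-fold higher (2.15 to 2.45). It had a UMI in 56.7% and 80.0% of cells, shares not taken at equal depth. Nfatc1, a factor of bulge quiescence, was at 38.6 and 74.9 CPM, and Barx2, a homeobox factor, at 56.5 and 114 CPM. Fgf18, a growth factor of resting follicles, was at 1.03 and 6.68 CPM.

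The remaining bulge genes were mixed. Lgr5 was at 14.3 CPM in WT cells and 23.8 CPM in KO, 1.66-fold higher (1.38 to 2.00), and Ctgf at 15.5 and 46.3 CPM. Wif1, a secreted Wnt inhibitor, was lower at 3.85 and 1.67 CPM. Col17a1 did not pass, at 291 and 335 CPM, a ratio of 1.15 (1.10 to 1.21), and neither did Cxcl14 with a ratio of 1.47. In cells with both Lhx2 and Sox9, where 15.5% of 9622 genes were called higher in KO and 10.1% lower, 7 of 25 bulge genes were higher and 1 lower. In cells with Sox9 alone, where 12.1% of 11815 genes were called higher and 7.74% lower, 8 of 26 were higher and 1 lower.

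Genes of the list were also called outside the group. In Krt79 keratinocytes 9 of 23 bulge genes were called higher and 2 lower, beside 10.4% and 9.83% of all genes. In reference fibroblasts, which make several of these proteins, 12 of 26 were called higher and 3 lower, beside 13.9% and 6.21%.

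Genes of the hair matrix, companion layer and inner root sheath were called higher in KO in 8 of 13 and lower in 2. Cldn3, a tight junction protein (chr5:134986214-134987472), was at 29.4 CPM in WT cells and 142 CPM in KO, 4.83-fold higher (4.38 to 5.33). It had a UMI in 6.09% of WT and 14.3% of KO cells. Krt75 was at 25.8 and 95.9 CPM, 3.71-fold higher, and 3.27-fold without the cell that held most of its UMIs in each library. Hoxc13, a homeobox factor of the hair shaft, was at 2.24 and 8.35 CPM. Krt27, an inner root sheath keratin, was lower at 9.05 and 1.41 CPM. These transcripts were in a minority of the cells.

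Upper follicle and isthmus genes had no common direction, with 4 of 16 called higher, 3 lower and a median of -0.26. Defb6, a beta-defensin of the upper follicle, was lower at 1089 CPM in WT cells and 539 CPM in KO. Lgr6, a receptor of isthmus stem cells, was at 3.58 and 5.66 CPM, a ratio of 1.58 (1.07 to 2.31).

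Wnt pathway genes were called higher in 14 of 27 and lower in 1, with a median log2 ratio of 0.64. Axin2, a feedback target, was at 5.24 CPM in WT cells and 9.51 CPM in KO, and the ubiquitin ligase Rnf43, another feedback target, at 2.37 and 8.48 CPM. Of 12 Notch pathway genes 5 were higher and 0 lower, with the receptor Notch1 at 97.4 and 167 CPM and the ligand Dll1 at 7.97 and 19.02 CPM. Of 9 Hedgehog pathway genes 3 were higher and 0 lower, with the receptor Ptch1 at 7.97 and 15.9 CPM and Gli1 at 2.06 and 4.11 CPM. Of 13 YAP and TEAD targets 5 were higher and 1 lower, with Amotl2, an angiomotin that binds YAP, at 31.9 and 85.2 CPM. In Krt79 keratinocytes 3 of 19 Wnt genes were called higher and 2 lower, near the 10.4% and 9.83% of all genes there. Notch genes were called higher there in 6 of 9, YAP and TEAD targets in 4 of 13 and Hedgehog genes in 1 of 6, each with 0 lower. Reference fibroblasts had 4 of 13 YAP and TEAD targets higher and 0 lower, beside 13.9% and 6.21% of all genes. Leukocyte barcodes had 6 of 12 higher and 1 lower, beside 14.0% and 6.73%. Whether any of these differences is larger in Lhx2/Sox9 keratinocytes was not tested.

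**Figure D5:**
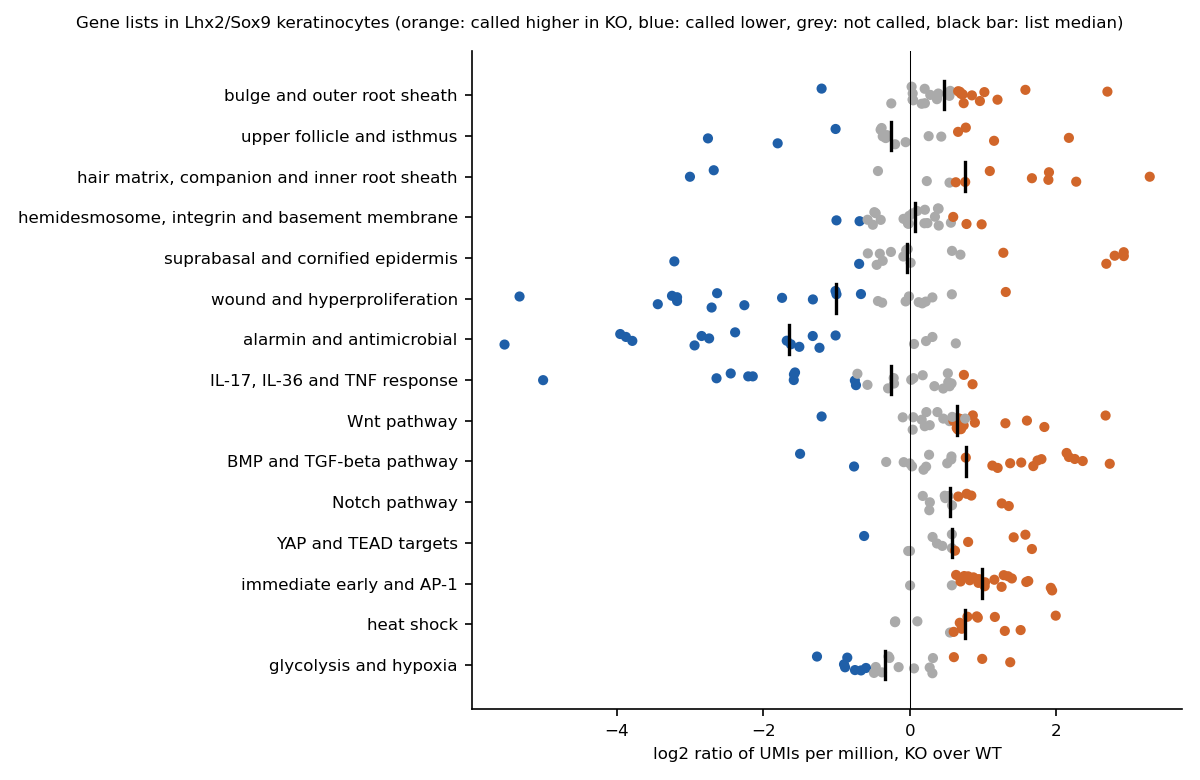
Log2 ratios of CPM, KO over WT, in Lhx2/Sox9 keratinocytes (horizontal axis) for the measured genes of 15 lists (vertical axis), with orange for genes called higher, blue for genes called lower, grey for genes not called and a black bar at each list's median. The immediate early list has a median of 0.98 with 20 of 22 genes called higher, and the alarmin list a median of -1.65 with 14 of 18 called lower.

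Immediate early and AP-1 genes were higher in KO in 20 of 22, with 0 lower and a median log2 ratio of 0.98. Egr1, a zinc finger transcription factor, was at 396 CPM in WT cells and 1504 CPM in KO, 3.80-fold higher (3.69 to 3.91). Fos was at 894 and 2741 CPM, and the nuclear receptor Nr4a1 at 77.2 and 297 CPM. Egr3 did not pass, at 117 and 118 CPM. Heat shock genes were higher in 10 of 14 with 0 lower. Hspa1a, the inducible HSP70, was at 149 and 591 CPM, and reads may be split with its near-identical copy Hspa1b. Hspb1 was at 2153 and 5290 CPM, Hspb8 at 63.7 and 248 CPM, and Cryab, another small heat shock protein, at 30.1 and 127 CPM.

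Other cell types showed this as well. In reference fibroblasts 14 of 22 immediate early genes were called higher in KO with 0 lower, in leukocyte barcodes 11 and 0, and in Krt79 keratinocytes 16 and 0. The shares of all genes called higher in these sets were 13.9%, 14.0% and 10.4%. Egr1 was at 1065 CPM in WT cells and 2524 CPM in KO reference fibroblasts. Heat shock genes were called higher in 10 of 14 in fibroblasts, 7 in leukocytes and 7 in Krt79 keratinocytes. Hspb8 and Cryab are outside that list. In Krt79 keratinocytes Hspb8 did not pass, at 61.1 CPM in WT cells and 79.6 CPM in KO, while Cryab was higher at 12.5 and 36.9 CPM. The differences of both lists were thus present in every cell type compared, and library and genotype cannot be told apart.

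Cytokine and chemokine genes had no common direction over the whole group, with 6 of 22 called higher, 6 lower and a median of -0.08. Il10, an anti-inflammatory cytokine, was at 1.39 CPM (31 UMIs in 26 cells) in WT and 14.8 CPM (115 UMIs in 56 cells) in KO. Cxcl10, an interferon-induced chemokine, was at 54.1 and 126 CPM. Il33 was lower at 112 and 57.8 CPM. Tslp did not pass, at 183 and 176 CPM, a ratio of 0.96 (0.90 to 1.02). Lower calls were thus limited to part of the list. Without genes whose level could come from free RNA, 14 were measured, of which 5 were called higher and 2 lower, with a median of 0.15. The 2 parts of the group differed. In cells with both Lhx2 and Sox9, 9 of 18 were called lower in KO and 3 higher, with a median of -0.94, beside 10.1% and 15.5% of all genes. In cells with Sox9 alone 6 of 22 were lower and 7 higher, with a median of 0.16, beside 7.74% and 12.1%.

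Of 26 genes of the IL-17, IL-36 and TNF response 10 were called lower and 2 higher. Without genes whose level could come from free RNA, 16 were measured, of which 5 were called lower and 2 higher. Il1f6, the cytokine IL-36 alpha, was at 23.9 CPM in WT cells and 5.398 CPM in KO, and Il1f9 at 77.4 and 46.0 CPM. Ccl20, the ligand of CCR6 on T cells and dendritic cells, was higher at 243 and 406 CPM, although 30.3% of its WT UMIs were in 1 cell. Without the single cell richest in its UMIs in each library its ratio was 2.22. Hbegf, an EGFR ligand, was the 1 gene of the wound list called higher, at 324 and 803 CPM. Of 13 EGFR ligands and receptors 4 were called higher and 0 lower. The IL-17, IL-36 and TNF list also had lower calls in KO in other cell types. In Krt79 keratinocytes 14 of 24 genes were lower and 4 higher, beside 9.83% and 10.4% of all genes. In reference fibroblasts 11 of 24 were lower and 1 higher, beside 6.21% and 13.9%. In leukocyte barcodes 7 of 23 were lower and 1 higher, beside 6.73% and 14.0%.

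Glycolysis and hypoxia genes were lower in 7 of 20 and higher in 3, with a median of -0.34 that was -0.06 with equal weight per cell. Eno1, a glycolytic enolase, was at 131 CPM in WT cells and 54.2 CPM in KO, and Gapdh at 1047 and 579 CPM. Vegfa, a growth factor of vessels, was higher at 48.4 and 73.4 CPM. Of 20 genes of the G2 and M phases 11 were lower and 1 higher, in cells from which the rule had already removed those with 3 or more UMIs of Mki67 and Top2a. Hemidesmosome, integrin and basement membrane genes were mostly not called, 3 of 24 higher and 2 lower, with Itga6 at 184 and 180 CPM.

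Of the remaining genes with the largest differences, Nppb, the natriuretic peptide BNP, was at 46.5 CPM in WT cells and 296 CPM in KO, 6.36-fold higher (5.91 to 6.85). It was not higher in Krt79 keratinocytes, at 100.3 and 69.6 CPM. Wfdc3, a protein with a WAP domain, was at 6.54 and 50.6 CPM, with 19.3% of the KO UMIs in 1 cell. Retnla, a secreted resistin-like protein, had 0 UMIs in WT and 528 in KO, of which 527 were in 1 cell, and it describes that cell only. Unlike Nppb, Wfdc3 was higher in KO in Krt79 keratinocytes too, at 1.77 and 18.9 CPM. The same held there for Dapl1, at 27.7 and 299 CPM, and Cldn3, at 2.27 and 28.9 CPM.

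Markers of other cell types were counted in the selected cells. The summed fibroblast markers were at 240 CPM in WT cells and 120 CPM in KO Lhx2/Sox9 keratinocytes, against 15110 and 12890 CPM in reference fibroblasts. Leukocyte markers were at 147 and 146 CPM, against 18600 and 17090 CPM in leukocyte barcodes. Of 7 fibroblast genes 4 were called lower in KO and 0 higher, of 9 leukocyte genes 5 and 2, and of 3 melanocyte and Schwann genes 1 and 2, beside 7.88% of all genes lower and 14.0% higher. Sebaceous and Merkel markers, of which keratinocytes make several, were at 1499 CPM in WT cells and 505 CPM in KO, with at least 3 UMIs in 67.6% and 61.2% of cells. Most of that was Fabp5, a fatty acid binding protein, at 1168 and 268 CPM, while the Merkel markers Krt20 and Atoh1 were at 0 in both. At least 3 UMIs of fibroblast, leukocyte, endothelial, mural, melanocyte and Schwann markers together were found in 525 WT cells (39.0%) and 88 KO cells (19.7%). Without those cells 1489 genes were called higher in KO and 820 lower.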

How the data were processed

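The authors deposited UMI counts, not normalized, for each gene and barcode, per the file headers. Per the submitters' processing notes, Cell Ranger 3.0.2, Seurat 3.0 and build mm10 were used, although version 3.1.0 stands in the matrix header. How the authors chose barcodes to deposit is not stated in the labels. Barcodes were filtered and selected as described above, and UMIs were summed per library and set and divided by the set's total (CPM). Ratios have exact intervals conditional on the summed count, single levels exact Poisson intervals and shares exact Clopper-Pearson intervals, all at 95% and for counting error only. A fold against 0 UMIs uses a floor of 3 counts. No p-value was computed, since each genotype has 1 library. No doublet caller was run, and doublets may remain. Cells under 4000 UMIs were left out of thinned shares: 295 of 1347 selected cells in WT and 32 of 446 in KO. Of basal barcodes with neither Lhx2 nor Sox9, 284 of 341 in WT and 15 of 35 in KO were left out.

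The members and the 29 gene lists were chosen with earlier results of these data known. Genes named between genotypes were, each way, the 12 whose interval bound lay farthest from 1 among genes with at least 50 UMIs and 50 CPM, and list genes by level, ratio or, for follicle lists, any measured member. Genes whose level was under 20% of that in reference fibroblasts or leukocytes were left out of that rule and are said to possibly come from free RNA. Reference barcodes had at least 0.5% marker UMIs and under 0.1% Krt5 and Krt14. Positions are from GENCODE M21. Alternatives changed the UMI cut-offs, mitochondrial limit, depth, weighting, scaling, gene filter and subset of cells. Python 3.11.15, numpy 2.4.6, scipy 1.17.1, pandas 2.3.3 and matplotlib 3.10.9 were used. The interval and call were tested on simulated data.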

Additional observations from a re-analysis of the deposited data

How the results depend on the processing

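No paired analysis was possible because each genotype has 1 library, and for the same reason no library could be left out. Selection depended on its cut-offs. The WT and KO shares of kept barcodes (11.6% and 4.64%) became 14.1% and 5.09% with at least 1 UMI of Lhx2 and Sox9, 9.63% and 4.14% with at least 3, and 9.05% in WT with thinned cells. Among barcodes of at least 10000 UMIs they were 17.0% (640 cells) and 7.87% (249 cells). They were 7.07% (822 cells) and 3.73% without cells holding other-lineage markers, and 11.0% in WT without the 5% largest cells. With cut-offs chosen after seeing the data, they were 22.3% (2593 cells) and 13.6% (1307 cells) at 0.2% Krt5 and Krt14, and 2.30% (267 cells) and 1.04% (100 cells) at 1%.

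Between genotypes, counts called higher and lower (1733 and 975) were 881 and 585 with thinned cells, 1635 lower with equal weight, 621 lower at 1% Krt5 and Krt14, and 35 and 37 in the 3 cells per library with Lhx2 alone. Those 3 cells also reversed Lcn2 (log2 ratio 1.79), Sprr2d (0.20), Id4 (-0.38), Hspa1a (-2.97), Egr1 (-1.26) and the immediate early (-0.062) and heat shock (-0.42) medians. Against other basal barcodes, the counts higher and lower (72 and 63) were 30 and 20 thinned, 117 and 41 without other-lineage cells, 131 and 167 with equal weight, 295 higher at 10000 UMIs, 12 higher without the largest cells, 356 lower at 0.2% and 11 lower at 1% Krt5 and Krt14, and 1247 and 720 with Krt79 keratinocytes as comparison. That comparison reversed Neu2 (1.29 WT, 0.12 KO), Csta1 (0.92 WT), Stfa1 (0.044 WT, 0.057 KO) and Ly6g6c (-2.37 WT, -2.04 KO). Leaving out the largest cells reversed WT Neu2 (0.22), Stfa1 (0.17) and Ly6g6c (-0.042), and the 1% cut-off reversed Wfdc18 (-2.39 WT, -5.13 KO), Ctsl (-0.66 KO) and Ly6g6c (-0.082 KO). The cause was not tested.

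Cells with Lhx2 alone over Sox9 alone gave 86 of 9024 genes higher (0.953%) and 66 lower (0.731%) from 3 cells per library. These were 206 and 198 with at least 1 UMI, 0 and 0 with at least 3 UMIs or at 10000 UMIs, 46 and 25 thinned, 30 lower without the largest cells, 52 higher with equal weight, 40 and 257 by the median ratio, 205 and 193 at 0.2%, and 40 and 41 at 1% Krt5 and Krt14. For cells with both factors over Sox9 alone the counts (1218 and 729) were 297 and 313 thinned, 499 higher with equal weight, and 338 and 166 at 1%. Equal weight reversed WT Ttr (-0.11), and the 1% cut-off reversed Cryab (-0.10 KO) and Wfdc18 (-1.30 WT). Depth limits Lhx2, whose absence in a cell does not show that the gene is off.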
